A study of Mus musculus with 7 samples.

Results

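The 10 genes followed here restrain RAS-MAPK signaling or carry its output, and were read in mouse glioma tissue. They are Dusp4, Dusp6, Spry1, Spry2, Spry4, Spred1, Etv1, Etv4, Etv5 and Phlda1. They were taken by gene symbol, all 10 were found among the 19257 named genes of the table, and all 10 passed the filter that left 14782 genes to test (a mean of 10 or more normalized counts, which are reads per gene divided by a scaling factor of the library). The tissue came from endpoint tumors raised by in utero electroporation of mouse embryos with a construct carrying Cas9 and guides to 3 genes, among them Nf1 and Trp53, together with a piggyBac reporter. The 3 libraries labelled 3xCr (replicates 2, 3 and 4, genotype control) were tumors with these 3 targeted genes, and the 4 libraries labelled 3xCr; GPC6 (replicates 1 to 4, here GPC6) carried the same guides and, in addition, a transposon that overexpressed GPC6, a heparan sulfate proteoglycan of the cell surface. Both groups therefore carried the Nf1 guide, and no library came from brain or tumor without it, so that the levels below could be compared between tumors but not with a state before Nf1 targeting. Each library was bulk tissue of 1 brain, dissected under a fluorescence microscope and so that tumor cells were read together with whatever neurons, glia and blood-derived cells lay between them. The strain, age and sex behind each library were not given beyond CD-1 and C57BL/6 backgrounds and animals of both sexes for the study.

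Neurofibromin, the product of Nf1, is a GTPase-activating protein that returns RAS to its inactive form, and its loss leaves RAS active for longer after a growth factor has bound its receptor. Active RAS drives the RAF, MEK and ERK kinases, and ERK in turn switches on genes that damp the pathway or carry its output. Among them are phosphatases that remove phosphate from ERK (Dusp4 and Dusp6), Sprouty and Spred proteins that act between receptor and RAF, ETS transcription factors of the PEA3 subfamily (Etv1, Etv4 and Etv5), which the repressor CIC holds down when ERK is inactive, and Phlda1. Since these transcripts follow ERK activity, they are widely used as a readout of it.

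The sequence just before the gene start was looked up for the members in RefSeq windows of GRCm38.p6, each from 250 bases before to 50 bases after a start. Windows were found for 6 of the 10 members (Spred1, Spry1, Dusp6, Etv1, Spry2 and Etv5, 8 windows in all, with 2 each for Etv1 and Etv5), and Dusp4, Spry4, Etv4 and Phlda1 had none. On both strands, CGGAAG, the core that ETS factors bind, lay in 2 of the 8 windows, those of Dusp6 and Spred1, against 16.9% of all 32851 windows. The octamers TGAATGAA and TGAATGGA, 2 forms of the site that CIC binds, lay in 0 of the 8 windows (1.30% and 1.21% of all windows). Other forms of the CIC site were not searched for. TGANTCA, the AP-1 site, also lay in 0 of the 8 (7.81% of all windows). No motif overlapped another in these matches. The 250 bases before the start are printed for the windows with an ETS core, with the core in capitals, and for Spry1 as a member without it. Dusp6 was read on the plus strand at chr10:99262981-99263230, with the core on the opposite strand and its first base 62 bases before the start. Spred1 was read on the plus strand at chr2:117120821-117121070, with a core 17 bases before the start and another, not printed, from base 8 of the transcript. Spry1 was read on the plus strand at chr3:37639697-37639946.
Dusp6: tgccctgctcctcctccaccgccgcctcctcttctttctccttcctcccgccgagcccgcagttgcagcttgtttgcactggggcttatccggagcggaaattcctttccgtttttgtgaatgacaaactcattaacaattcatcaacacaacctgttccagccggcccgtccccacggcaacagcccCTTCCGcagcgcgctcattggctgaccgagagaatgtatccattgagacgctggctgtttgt
Spred1: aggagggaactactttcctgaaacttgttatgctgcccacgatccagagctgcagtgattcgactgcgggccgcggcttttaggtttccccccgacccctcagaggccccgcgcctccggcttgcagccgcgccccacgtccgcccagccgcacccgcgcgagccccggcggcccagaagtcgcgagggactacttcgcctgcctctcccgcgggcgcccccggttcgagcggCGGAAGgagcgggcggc
Spry1: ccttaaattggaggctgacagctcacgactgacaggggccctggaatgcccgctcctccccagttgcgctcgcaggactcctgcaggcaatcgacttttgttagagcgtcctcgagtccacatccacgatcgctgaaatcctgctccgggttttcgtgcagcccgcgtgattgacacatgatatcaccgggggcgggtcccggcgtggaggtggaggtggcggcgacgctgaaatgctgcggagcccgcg
The G and C content of the 300-base windows was 57.3% for Dusp6, 72.3% for Spred1 and 64.3% for Spry1, against a median of 52.7% over all windows.

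The libraries held 8322446 to 18879762 reads on genes in 3xCr and 7197692 to 11343102 in GPC6, and the members had between 44 and 3479 reads in a library, so that none lay near the floor of 3 reads (1.64 to 4.64 normalized counts). Gpc6, which checks the labels, had 217, 226 and 126 normalized counts in 3xCr and 675, 263, 3434 and 5084 in GPC6 replicates 1 to 4 (log2 fold change 2.85, standard error 0.98, limma adjusted p = 0.730). The library labelled GPC6 replicate 2 thus lay close to the 3xCr level. GPC6 replicate 1 stood apart in its cell type markers, with the highest sum of 15 pan-neuronal markers (83215 normalized counts, against 7276 to 49165 in the other 6) and the lowest sum of 10 proliferation markers (1173, against 6406 to 15200). Defining markers of neurons, astrocytes, oligodendrocyte precursor cells (OPCs), oligodendrocytes and microglia were read in the 7 libraries, and 0 of the listed markers were at 0 throughout. The fold changes of the members are therefore also given without GPC6 replicate 1 and without GPC6 replicate 2, and without any other library that moved them by over 1.5 times, where they were not close to 0.

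Nf1 transcripts were present in every library. In the 3xCr tumors Nf1 had 711, 543 and 352 normalized counts (replicates 2, 3 and 4), and in the GPC6 tumors 666, 815, 368 and 755 (replicates 1 to 4). The groups overlapped (log2 fold change of GPC6 against 3xCr 0.28, standard error 0.36, adjusted p = 0.826 by the Benjamini-Hochberg method over all genes in limma). Counts per gene do not show whether a transcript carries an edit.

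Between GPC6 and 3xCr tumors the mean log2 level was lower in GPC6 for 9 of the 10 feedback genes and higher for Etv1 alone, and 0 of the 10 passed the test. Of all genes tested, 51.7% had a lower and 48.3% a higher mean in GPC6. The median log2 fold change of the members was -0.34, beside -0.019 over all genes, and the single values ran from -0.73 for Etv4 to 0.43 for Etv1 on the log2(normalized count + 1) scale. In bulk tissue, fewer cells of a type and less RNA per cell cannot be told apart. In limma 0 of the 14782 genes were below an adjusted p of 0.05 (0% called), and 689 (4.66%) were below an unadjusted p of 0.05, 1.92% lower and 2.74% higher in GPC6, among them 0 members. The quasi-likelihood test of edgeR called 0 genes after adjustment and 991 before it, voom 0 and 499, and the Wald test of DESeq2 9 and 1793, and no member was called by any of them. The groups did not overlap in 6.32% of all genes (3.52% lower and 2.8% higher in GPC6) and in 0 of the 10 members. The median of the members moved with single GPC6 libraries, as it was -0.055 without GPC6 replicate 1, -0.53 without GPC6 replicate 2 and -0.20 without GPC6 replicate 4. Without both replicates 1 and 2 it was -0.29, with 8 of the 10 members lower, and this was chosen after seeing the data.

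**Figure D1:**
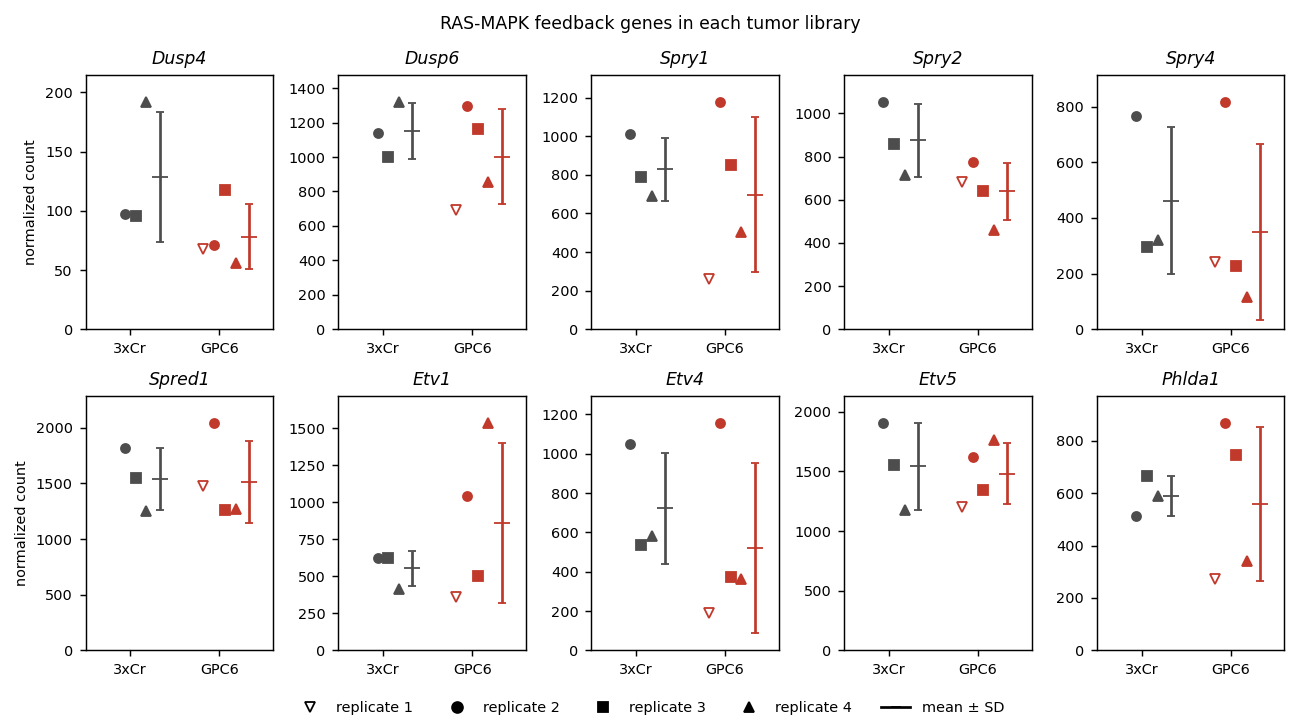
Normalized counts (y axis, from 0) of the 10 feedback genes in the 3 3xCr libraries (grey) and 4 GPC6 libraries (red), 1 point per library with the symbol giving the replicate, and the mean ± SD beside them. Points of the groups overlapped for each gene, and GPC6 replicate 2 was the highest of the 7 libraries for 5 genes.

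The phosphatases were lower on average in GPC6. Dusp4, a nuclear phosphatase of ERK and related kinases (chromosome 8, 34807297 to 34819894 of GRCm38), had 97.6, 95.8 and 192 normalized counts in the 3xCr tumors, in the order of replicates 2, 3 and 4 that is kept below. In the GPC6 tumors it had 68.0, 71.1, 118 and 55.6 (replicates 1 to 4). Of the GPC6 libraries, 3 lay below every 3xCr library, and GPC6 replicate 3 lay between them. The means were 128 ± 55.0 (SD, n = 3) and 78.2 ± 27.4 (SD, n = 4), a log2 fold change of -0.69 (standard error 0.40, 95% interval -1.61 to 0.23, limma adjusted p = 0.730). It was -0.64 without GPC6 replicate 1, -0.66 without GPC6 replicate 2 and -0.36 without 3xCr replicate 4. Dusp6, the cytoplasmic phosphatase that is selective for ERK (chromosome 10, 99263231 to 99267489), had 1138, 998 and 1320.5 normalized counts in 3xCr and 694, 1298, 1163 and 854 in GPC6. The GPC6 tumors straddled the 3xCr range, with replicates 1 and 4 below it and replicates 2 and 3 inside it. The log2 fold change of Dusp6 was -0.23 (standard error 0.26, 95% interval -0.85 to 0.38, limma adjusted p = 0.804). It was -0.073 without GPC6 replicate 1, -0.37 without GPC6 replicate 2 and -0.13 without 3xCr replicate 4. Both phosphatases were highest of all libraries in 3xCr replicate 4.

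Sprouty proteins are inhibitors of receptor tyrosine kinase signaling, induced by the signal that they restrain, and 3 of them were measured. Spry1 (chromosome 3, 37639947 to 37644598) had 1009, 786 and 688 normalized counts in 3xCr and 258, 1178, 848 and 506 in GPC6 replicates 1 to 4. Its GPC6 values lay on both sides of the 3xCr values and spanned 4.56-fold, against 1.47-fold in 3xCr. The log2 fold change of Spry1 was -0.44 (standard error 0.49, 95% interval -1.58 to 0.69, limma adjusted p = 0.803), and it was -0.036 without GPC6 replicate 1, -0.76 without GPC6 replicate 2 and -0.29 without 3xCr replicate 2. Spry2 (chromosome 14, 105891947 to 105896819) had 1054, 858 and 717 normalized counts in 3xCr and 683, 775, 639.6 and 462 in GPC6. Of the GPC6 tumors, 3 were below all of 3xCr, with replicate 2 above 3xCr replicate 4. The means of Spry2 were 876 ± 169 (SD, n = 3) and 639.8 ± 131 (SD, n = 4). Its log2 fold change was -0.46 (standard error 0.25, 95% interval -1.03 to 0.11, limma adjusted p = 0.730), and it had the smallest unadjusted p of the 10 members in limma. Without GPC6 replicate 1 the log2 fold change of Spry2 was -0.50 and without GPC6 replicate 2 it was -0.56. A two-sided exact permutation test gave p = 0.114 for Spry2 and for Dusp4, where 0.029 is the smallest that 3 libraries against 4 can give.

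Spry4 was the least even of the 10 genes. It had 767 normalized counts in 3xCr replicate 2 and 297 and 322 in 3xCr replicates 3 and 4, and 817 in GPC6 replicate 2 against 241, 229 and 115 in GPC6 replicates 1, 3 and 4. One tumor of each group, replicate 2 in both, thus stood well above the other 5. The group means of 462 ± 265 (SD, n = 3) and 351 ± 316 (SD, n = 4) differed by less than either SD (log2 fold change -0.64, standard error 0.65, 95% interval -2.14 to 0.87, limma adjusted p = 0.787). The log2 fold change of Spry4 was -0.59 without GPC6 replicate 1, -1.17 without GPC6 replicate 2, -0.23 without GPC6 replicate 4 and -0.20 without 3xCr replicate 2. Without GPC6 replicate 2, Spry4 had an unadjusted p under 0.05 (limma), as did Etv4, but neither passed adjustment. In that fit 1399 of all 14782 genes were below the same unadjusted p. Spred1, which binds neurofibromin and brings it to the membrane where RAS is (chromosome 2, 117121374 to 117182279 in GENCODE), was even, with 1815, 1552 and 1256 normalized counts in 3xCr and 1476, 2044, 1263 and 1268 in GPC6. The ranges of the groups coincided nearly in full apart from GPC6 replicate 2, and the log2 fold change of -0.039 had a 95% interval from -0.61 to 0.53 (limma adjusted p = 0.971), with -0.037 when GPC6 replicate 1 was left out and -0.19 when GPC6 replicate 2 was. The interval does not show that Spred1 was equal in both groups.

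The 3 PEA3 factors had a lower (Etv4), a higher (Etv1) and a nearly equal (Etv5) mean log2 level in GPC6, with wide intervals. Etv4 (chromosome 11, 101769742 to 101785371) had 1047, 538 and 584 normalized counts in 3xCr and 192, 1157, 373 and 361 in GPC6 replicates 1 to 4. Its lowest tumor was GPC6 replicate 1 and its highest GPC6 replicate 2, so that 1 group held both ends of a 6.04-fold range. The log2 fold change of Etv4 was -0.73 (standard error 0.57, 95% interval -2.05 to 0.59, limma adjusted p = 0.742), the lowest of the members with all 7 libraries. It was -0.36 without GPC6 replicate 1, where Dusp4, Spry4 and Spry2 were lower, -1.22 without GPC6 replicate 2 and -0.43 without 3xCr replicate 2. Etv1 (chromosome 12, 38779380 to 38870484), which also marks a class of cortical output neurons, had 620.5, 624 and 416 normalized counts in 3xCr and 360.1, 1040.3, 505 and 1536 in GPC6. Its 2 highest values were those of GPC6 replicates 4 and 2, and GPC6 replicate 1, the library richest in neuronal markers, had its lowest. The log2 fold change of Etv1 was 0.43 (standard error 0.50, 95% interval -0.72 to 1.58, limma adjusted p = 0.810). It was 0.77 without GPC6 replicate 1, 0.26 without GPC6 replicate 2, 0.077 without GPC6 replicate 4 and 0.24 without 3xCr replicate 4. Etv5 (chromosome 16, 22381309 to 22439719) had 1907, 1551 and 1177 normalized counts in 3xCr and 1199, 1618, 1340.4 and 1763 in GPC6. All 4 GPC6 values lay within the 3xCr range, and the log2 fold change was -0.050 (95% interval -0.61 to 0.51, limma adjusted p = 0.960), 0.045 without GPC6 replicate 1 and -0.098 without GPC6 replicate 2.

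Phlda1, a protein with a pleckstrin homology-like domain (chromosome 10, 111506286 to 111508645), had 512, 667 and 589.8 normalized counts in 3xCr and 272, 868, 748 and 343 in GPC6 replicates 1 to 4. The 3xCr tumors formed a narrow band, with GPC6 replicates 2 and 3 above it and replicates 1 and 4 below it. The means, 589.6 ± 77.5 (SD, n = 3) and 558 ± 295 (SD, n = 4), were close while the SD was larger in GPC6 (log2 fold change -0.24, 95% interval -1.23 to 0.75, limma adjusted p = 0.876). The log2 fold change of Phlda1 was 0.048, -0.51, -0.44 and -0.062 without GPC6 replicates 1, 2, 3 and 4 in turn, and -0.15 without 3xCr replicate 3.

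**Figure D2:**
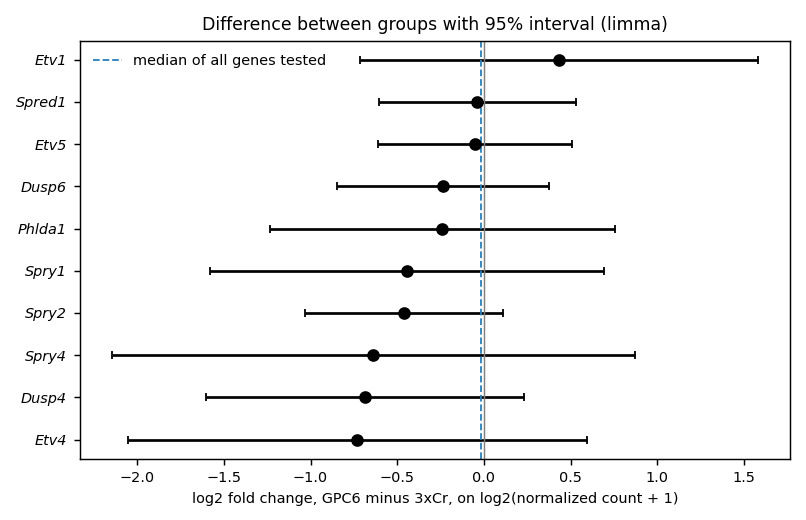
Log2 fold change of GPC6 against 3xCr (x axis, log2(normalized count + 1) scale) for each feedback gene (y axis), with 95% intervals from limma. The 10 intervals include 0, and the dashed line is the median of all genes tested, -0.019.

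Within the 3xCr group, the feedback genes had a spread near that of all genes. The SD of log2(normalized count + 1) over the 3 libraries had a median of 0.31 among the members and 0.35 among all genes tested, and it was under the median of all genes in 7 of the 10. Phlda1 and Dusp6 were the most even, with SDs of 0.19 and 0.20. Spry4, Dusp4 and Etv4 were the least even, with SDs of 0.76, 0.57 and 0.52 and a highest library 2.59-fold, 2.00-fold and 1.95-fold above the lowest. The library that stood out was not the same for these 3, since Spry4 and Etv4 were highest in 3xCr replicate 2 and Dusp4 in 3xCr replicate 4. Of the 10 genes, 6 were highest in 3xCr replicate 2 within the group (Spry1, Spry2, Spry4, Spred1, Etv4 and Etv5), 2 in replicate 3 (Etv1 and Phlda1) and 2 in replicate 4 (Dusp4 and Dusp6). The median SD was 0.20 without 3xCr replicate 2, which leaves 2 libraries.

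Within the GPC6 group the SD was larger than within 3xCr for 8 of the 10 members, and 70.5% of all genes tested showed the same. The median SD was 0.64 among the members and 0.53 among all genes. Spry4, Etv4, Etv1 and Spry1 spread most, with SDs of 1.17, 1.08, 0.95 and 0.95 on the log2 scale, and Etv5 and Spry2 least, with 0.25 and 0.32. The difference between the groups made up a median of 11.0% of the variance of a member over the 7 libraries, against 14.2% over all genes. It was largest for Spry2 (44.3%) and Dusp4 (39.0%), and under 1% for Spred1 (0.568%) and Etv5 (0.982%). For each of the 10 genes, therefore, more of the variance lay between tumors of a group than between the groups. With a median of 14.2% over all genes, the same held for most genes, so it does not set the members apart.

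**Figure D3:**
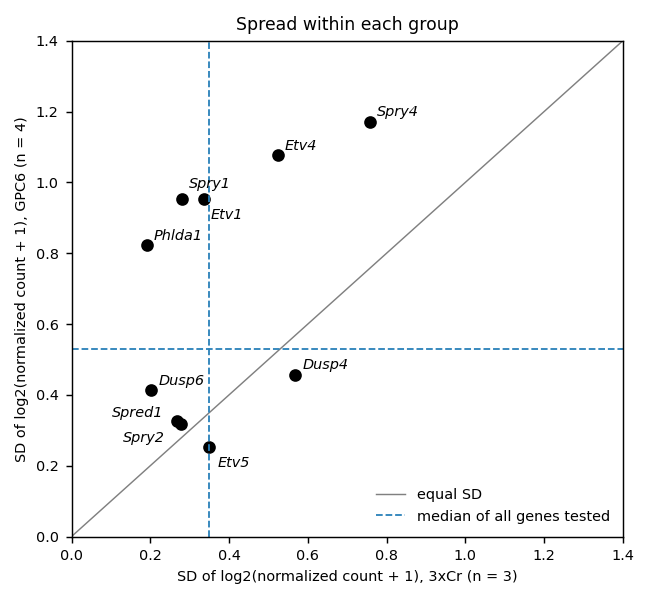
SD of log2(normalized count + 1) within 3xCr (x axis, n = 3) and within GPC6 (y axis, n = 4) for each feedback gene, with the line of equal SD and, dashed, the median of all genes tested (0.35 and 0.53). Spry4, Etv4, Spry1, Etv1 and Phlda1 lie far above the line of equal SD, and Dusp4 and Etv5 below it.

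Across the tumors, most pairs of members varied in the same direction. With each gene set to its mean over the 7 libraries, the mean of the 10 genes was highest in GPC6 replicate 2 (0.53 log2 units) and 3xCr replicate 2 (0.41), close to 0 in 3xCr replicates 3 and 4 and GPC6 replicate 3 (0.075, 0.047 and -0.060), and lowest in GPC6 replicates 4 (-0.35) and 1 (-0.65). GPC6 replicate 2 had 9 of the 10 genes above their mean and GPC6 replicate 1 had 0. Spry1, Spry4, Spred1, Etv4 and Phlda1 were highest of all libraries in GPC6 replicate 2, while Dusp6, Spry1, Etv1, Etv4 and Phlda1 were lowest of all in GPC6 replicate 1. Dusp4 departed from this order, with its highest value in 3xCr replicate 4 and a value below its mean in GPC6 replicate 2, and so did Etv1, which was highest in GPC6 replicate 4. Across the 7 libraries 40 of the 45 pairs of members had a Pearson r above 0, with a median of 0.45, and each of the 5 pairs below 0 held Dusp4 or Etv1, the lowest being the pair of both (-0.61), while Spry1 and Etv4 were the most alike (0.90). These coefficients describe 7 libraries that share a dissection and a scaling, and carry no test. They were not computed for pairs of other genes, so they do not set the members apart.

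**Figure D4:**
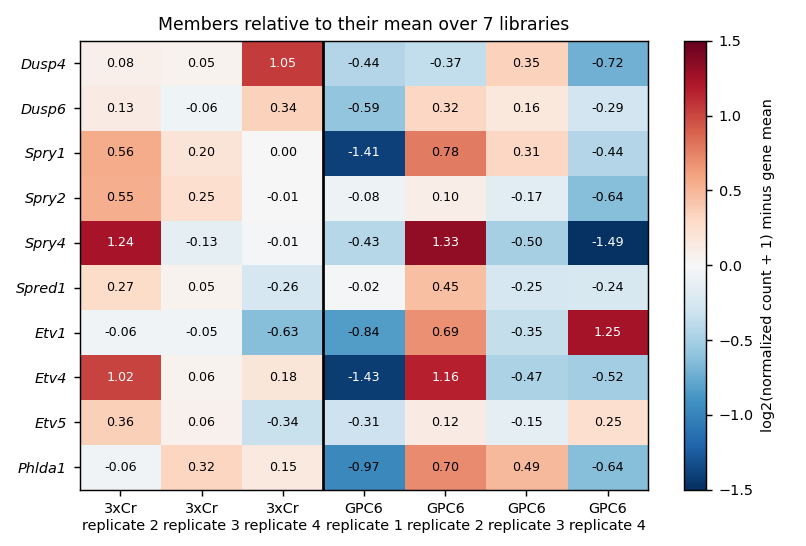
Each feedback gene (rows) in each library (columns, 3xCr left of the line and GPC6 right of it) as log2(normalized count + 1) minus the mean of that gene over the 7 libraries, red above and blue below it. The column of GPC6 replicate 1 is below 0 for all 10 genes, and that of GPC6 replicate 2 is above 0 for 9.

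Cell type markers also differed between the tumors, in part along this order (OPC) and in part not (proliferation and microglia), and their part in it was not tested. The sum of 10 OPC markers, which gliomas of this kind also express, was highest in GPC6 replicate 2 (108430 normalized counts) and 3xCr replicate 2 (79086). These are also the libraries where the feedback genes were highest. The OPC sum was lowest in 3xCr replicate 4 (23791) and GPC6 replicate 1 (25642), and of these GPC6 replicate 1 had the lowest members while 3xCr replicate 4 did not. The proliferation sum was 1173 in GPC6 replicate 1 and 15200 in GPC6 replicate 4, the pair of libraries with the lowest mean of the members. The pan-neuronal sum was 7276 to 14122 in 3xCr and 11022 to 83215 in GPC6, with all 15 markers higher on average in GPC6. The sum of 12 microglia and macrophage markers was 34225 to 65511 in 3xCr and 17005 to 33160 in GPC6, with all 12 lower on average in GPC6 and no marker past adjustment in limma. The astrocyte sum was 15720 to 62481 in 3xCr and 28190 to 66466 in GPC6, the oligodendrocyte sum 67894 to 85910 and 16080 to 114572, the endothelial sum 1252 to 3391 and 2275 to 3091, and the choroid plexus sum 222 to 3812 and 66.9 to 12732. Neither Gpc6 nor Nf1 had the order of the members across tumors, since the GPC6 libraries of highest Gpc6 (replicates 3 and 4) had middling and low members and Nf1 was nearly as high in GPC6 replicate 4 (755) as in GPC6 replicate 2 (815).

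**Figure D5:**
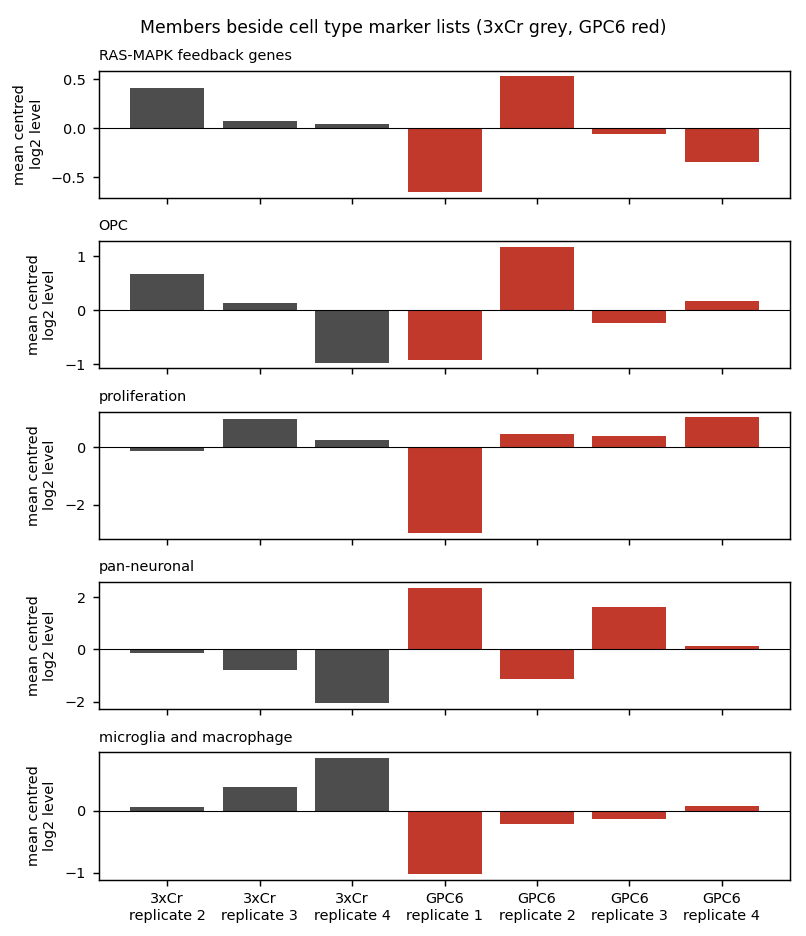
Mean over the genes of a list of log2(normalized count + 1) minus the gene mean (y axis) in each library (x axis, 3xCr grey and GPC6 red) for the 10 feedback genes and 4 marker lists. The feedback genes were highest in GPC6 replicate 2 (0.53) and 3xCr replicate 2 (0.41), as was the OPC list (1.18 and 0.67), and GPC6 replicate 1 was lowest for the feedback genes (-0.65) and the proliferation list (-2.98).

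Levels of different genes were compared per kilobase of exon, from the exons of GENCODE M21. In the 3xCr tumors Spry2 stood highest with 419.8 ± 81.1 normalized counts per kilobase (SD, n = 3), followed by Etv5 (377 ± 89.0), Dusp6 (368 ± 51.6), Spry1 (285 ± 56.5), Phlda1 (267 ± 35.1), Etv4 (233 ± 90.8), Spred1 (227 ± 41.2), Spry4 (97.2 ± 55.7), Dusp4 (46.9 ± 20.1) and Etv1 (41.6 ± 8.97). Each gene overlapped in range with its neighbour in this order, apart from Spred1 (185 to 268) and Spry4 (62.4 to 161), so that Spry4, Dusp4 and Etv1 lay below the other 7 genes. The length of Etv1 takes in the exons of many isoforms, which lowers its value per kilobase.

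Other genes of the pathway were read from lists of 63 genes that hold none of the members, of which 60 were tested, 34 higher and 26 lower on average in GPC6, with a median log2 fold change of 0.072. In limma 0 of them passed adjustment and 6 had an unadjusted p under 0.05, and the groups did not overlap in 7 (11.7%, against 6.32% of all genes). Among 25 RAS GTPases and their regulators, 16 were higher and 9 lower. Ptpn11, the phosphatase SHP2 that links receptors to RAS, had the most normalized counts without correction for length, with 2891 ± 339.95 normalized counts in 3xCr (SD, n = 3) and 2894 ± 812 in GPC6 (SD, n = 4), and Rasgrf1, a RAS exchange factor of neurons, had the largest log2 fold change (2.29, standard error 1.05, limma adjusted p = 0.730). Rasgrf1 had 479, 118 and 70.4 normalized counts in 3xCr and 3912, 369, 1175 and 218 in GPC6 replicates 1 to 4, and its groups overlapped. Rasgrp3, an exchange factor activated by diacylglycerol, had the lowest log2 fold change (-1.21, standard error 0.47, limma adjusted p = 0.730). It had 229, 227 and 622 normalized counts in 3xCr and 158, 177, 167 and 75.1 in GPC6 replicates 1 to 4, so that the groups did not overlap. Rras and Rasal3 likewise had log2 fold changes of -0.95 and -0.86 with groups that did not overlap, and Lztr1, an adaptor for RAS degradation, one of 0.26. Rasal3, a RAS GTPase-activating protein of blood cells, stood beside the lower microglia and macrophage sums in GPC6 given above, whose part was not tested. Rras is a RAS relative of vessel cells. Of 10 endothelial markers, 8 were higher and 2 lower on average in GPC6, and their part was likewise not tested.

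Of 10 RAF, MEK and ERK kinases, 6 were higher and 4 lower. Ksr2, a scaffold of the kinases, had the largest log2 fold change (1.90, standard error 0.94) and Map2k2, which encodes MEK2, the smallest (-0.37). Ksr2 was low, with 46, 10 and 1 reads in 3xCr replicates 2, 3 and 4, the last below the floor of 3 reads. In GPC6 it had 94.3 normalized counts in replicate 1 and 17.8 to 25.7 in replicates 2 to 4, and the groups overlapped. Of 8 other MAPK phosphatases, 2 were higher and 6 lower. Their log2 fold changes lay between those of Dusp8 (1.18, standard error 0.74) and Dusp9 (-1.09, standard error 0.67), an ERK phosphatase related to Dusp6. Groups overlapped for both. Dusp8 had 1645, 282, 772 and 179 normalized counts in GPC6 replicates 1 to 4, against 141 to 335 in 3xCr. Dusp9 was highest of all libraries in GPC6 replicate 2 (128). Of the other Sprouty and Spred genes, Spry3 was not analysed here, Spred2 had a log2 fold change of 0.26 and Spred3 one of -0.18.

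Further genes that ERK induces were split, with 5 of 11 higher and 6 lower in GPC6 (Fosl1 and Phlda2 did not pass the filter). Ccnd1, which encodes cyclin D1, had the most normalized counts without correction for length and had the lowest log2 fold change (-1.08, standard error 0.66, limma adjusted p = 0.730). Its normalized counts were 8117, 9924 and 11424 in 3xCr and 1298, 11769, 5546 and 5256 in GPC6. Like Etv4, it was lowest in GPC6 replicate 1 and highest in GPC6 replicate 2. Epha4, a receptor of ephrins, had the largest (1.45, standard error 0.86). It had 1493 normalized counts in GPC6 replicate 1 and 141 to 357 in the other GPC6 tumors, and the groups overlapped. Egr1 is an immediate early gene that neuronal activity also induces. It had 540.4, 486 and 477 normalized counts in 3xCr and 1914, 1159, 1465 and 569.97 in GPC6. Its groups did not overlap (log2 fold change 1.22, standard error 0.39, limma adjusted p = 0.730). The pan-neuronal sum was 83215, 11022, 49165 and 16483 in GPC6 replicates 1 to 4. In 3xCr replicates 2 to 4 it was 14122, 10187.5 and 7276, and its part in the level of Egr1 was not tested. The 4 genes listed here with the repressor CIC were all higher on average, from 0.12 for Atxn1l and Cic to 0.65 for Atxn2. Of these Atxn2 had groups that did not overlap, but the data do not show that it acts with CIC.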

How the data were processed

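The authors aligned reads of stranded poly(A) libraries to mm10 with STAR (2.5.0a per the labels), counted them on genes and normalized them with DESeq2 (1.20.0). The deposited values are a normalized signal, that is gene counts scaled by 1 size factor for each library, with no length correction, in 7 columns, all used. Of 19282 entries, 25 were left out because their names had become calendar dates (0.254% to 0.361% of reads). Whole reads were recovered from the deposited signal (100% of values within 0.01 of a whole number).

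The main test was limma 3.58.1 (R 4.3.3) with a mean-variance trend, after log2 transformation with a pseudocount of 1, two-sided, adjusted by Benjamini and Hochberg over 14782 genes (96.4% with an exon length). The study used DESeq2. Since the deposited values are normalized, the log scale was chosen here for the main test, although whole reads could be recovered. Count tests (edgeR 4.0.16, DESeq2 1.42.0, voom) ran on recovered reads as alternatives. The fit was checked on data simulated with a common spread for all genes and with changes larger than those of any member. The check did not model the uneven spread between these tumors. It therefore does not measure the power of the test here. Single genes were also compared by exact permutation of 35 splits. P-values cover the spread between tumors, and a floor of 3 reads covers counting error only. The fit was also repeated with a pseudocount of 0.5 or 5, without the filter or with one at a mean of 50, scaling to equal totals or upper quartiles, library weights, a replicate block and leaving out each library.

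The members and lists were chosen with earlier results of these data known, so no set test was made. Named beside the members were Nf1, Trp53, Gpc6, and from each pathway list the most abundant gene and those of largest and smallest fold change. Pathway genes whose groups did not overlap (Rras, Rasal3, Lztr1, Egr1 and Atxn2) were named after their values were seen. Marker lists for cell types were given as sums. The guide sequences were not used here, and single items that these rules would name are not reported here.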

Additional observations from a re-analysis of the deposited data

Results flagged for a closer look

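The rule of Dixon for a stray value (95% level, log2 scale) was applied to the 4 GPC6 tumors of each quantity. Of 51 quantities looked at, 1 met this, where chance flags about 1 in 20, and it was not a feedback gene. Rasgrp3 had 75.1 normalized counts in GPC6 replicate 4, where the remaining GPC6 tumors had 158 to 177 and 3xCr 227 to 622. With 3 tumors, 3xCr is too small for the rule.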

How the results depend on the processing

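Over 19 alternatives, 176 of 190 fold changes of the members kept their direction and were not called, and 14 changed sign. The alternatives are not independent. The filter settings leave each fold change as it was, and the replicate block repeats the fold changes without GPC6 replicate 1. In DESeq2, Dusp4 had no adjusted p. The number of members lower in GPC6 was 7 to 9 of 10. With library weights from arrayWeights, 1962 genes were called and 0 members (lowest adjusted p 0.057, for Spry2), the median of the members was -0.13, and the log2 fold changes of Dusp4, Dusp6, Etv1 and Phlda1 turned to 0.064, 0.13, -0.094 and 0.064. DESeq2 called 9 genes and 0 members, with a median of -0.21, and edgeR and voom called 0. Scaling to equal totals turned Spred1 to 0.0076. Leaving out both GPC6 replicates 1 and 2, chosen after seeing the data, turned Etv5 to 0.021. In that fit Spry2, Spry4 and Etv4 had an unadjusted p under 0.05 (limma), as had 902 of all 14782 genes, and no member passed adjustment. The cause of these was not tested. Without 1 library at a time, Spred1 ranged from -0.19 to 0.087, Etv5 from -0.23 to 0.12 and Phlda1 from -0.51 to 0.048, the number of members lower from 7 to 9, the count of genes called was 0 throughout, and the median SD within 3xCr ranged from 0.20 to 0.40. At an unadjusted p under 0.05, limma had 689 genes, edgeR 991, DESeq2 1793, arrayWeights 5105, and voom 499, and with 1 library left out between 121 (without 3xCr replicate 4) and 1399 (without GPC6 replicate 2).

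With the replicate number as a block, 0 genes were called and 7 members were lower, with a median of -0.055, and Etv5 and Phlda1 turned to 0.045 and 0.048. The block leaves GPC6 replicate 1, whose number has no partner, without weight. The sample titles give no pairing of the tumors beyond the number. Deviations from the group means correlated across genes with r of -0.19, 0.12 and 0.30 for numbers 2, 3 and 4. Of the 3xCr libraries, replicate 4 correlated best with its own number, but not every library did. Whether tumors of the same number shared a batch was not tested. With 44 reads, Dusp4 in GPC6 replicate 1 had the least depth of any member value.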

Other observations

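Among 11253 other genes with a mean of at least 100 normalized counts, those whose log2 level over the 7 libraries was most like the mean of the 10 feedback genes were Adam12 (Pearson r = 0.998), Tuba1a (0.982), Slc25a20 (0.978), Eps8 (0.976) and Gng12 (0.974). Adam12, a membrane metalloprotease, had 962 normalized counts in 3xCr replicate 2, 593 in replicate 3 and 543 in replicate 4, and 158, 1384, 431 and 269 in GPC6 replicates 1 to 4. Its highest libraries were replicate 2 of each group and its lowest GPC6 replicate 1, the order that Etv4 also had at its ends. Tuba1a, an alpha tubulin of immature neural cells, ranged from 15501 normalized counts in GPC6 replicate 1 to 69668 in GPC6 replicate 2. Eps8, a substrate of the EGF receptor, ranged from 476 to 1366 in the same libraries. The coefficients are the highest of many over 7 libraries, and carry no test.

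Within the 3xCr group, Nf1 itself was highest in replicate 2 and lowest in replicate 4 (711, 543 and 352 normalized counts in replicates 2, 3 and 4), the same order of the 3 tumors as Spry1, Spry2, Spred1 and Etv5, while Dusp4 and Dusp6 were highest in replicate 4. Trp53 had the opposite order, with 231, 370.2 and 789. Read depth in 3xCr replicates 2, 3 and 4 had the order of Nf1 too (18879762, 11339136 and 8322446 reads on genes). How many of all genes had that order was not counted, and a link between Nf1 and the members was not tested. In GPC6 the order of Nf1 (replicate 2, then 4, 1 and 3) was matched by none of the 10 feedback genes.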
